A study of Mus musculus with 9 samples.

Results

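Transcript levels of 8 enzymes of cholesterol synthesis (Hmgcs1, Idi1, Fdft1, Sqle, Lss, Cyp51, Sc5d and Dhcr7) were compared in the brain cortex of 3 inbred mouse strains. The enzymes were chosen by gene name, 8 of the 54532 genes in the deposited table, and every one was measured in each of the 9 mice. RNA had been sequenced from 3 male mice of each of C57BL6/J (B6), C3H/HeJ (C3H) and WSB/EiJ (WSB), aged 8 to 12 weeks and given no treatment, in order to rank candidate genes of a stroke locus. The mouse reference genome comes from B6, a classical inbred strain like C3H, whereas WSB was derived from wild mice. All 9 mice carried their strain's own genome, with no transgene or deletion named in the labels. Because whole cortex was sequenced, fewer cells of a type and less RNA per cell cannot be told apart in any value below.

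Cells build cholesterol from acetyl-CoA in a long chain of reactions in the cytosol and the endoplasmic reticulum, first to mevalonate and isoprenoid units, then to squalene, then to lanosterol and through the later sterols to cholesterol. The brain makes nearly all of its own cholesterol because lipoproteins of the blood do not cross into it, and myelin, made by oligodendrocytes, holds a large share. Most genes of the chain are switched on together by the transcription factor SREBP2 (gene Srebf2) when sterol in the endoplasmic reticulum is low, and Insig1, itself a target of SREBP, holds the factor back when sterol is plentiful.

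The 250 bases upstream of the transcription start were available in RefSeq (GRCm38.p6) for 6 of the 8 genes, namely Hmgcs1, Idi1, Lss, Cyp51, Sc5d and Dhcr7. They were searched on both strands for TCACNCCAC, the core of a sterol regulatory element bound by SREBP, and for CCAAT, the box bound by NF-Y, a partner of SREBP at many sterol genes. The first was found only upstream of Hmgcs1, from 137 to 129 bases before the start, and in 346 of all 32851 upstream windows (1.05%). CCAAT was found in at least 1 window of each of the 6 genes, and in 33.8% of all windows, so it is a common sequence. The 6 genes had 8 windows, since Dhcr7 had more than 1. Its windows at chr7:143822917-143823166 and chr7:143823149-143823398 held no CCAAT. The matches of Dhcr7 lay at chr7:143829964-143830213, within the span of the gene. The window of Hmgcs1 is shown because it held the sterol element, and that of Sc5d because Sc5d had the largest difference between strains of the 8 genes, a choice made after its values were seen. Both are written in the direction of the gene with the matches in capitals, ATTGG being CCAAT on the other strand. The window of Hmgcs1 lies at chr13:119690101-119690350 on the plus strand and that of Sc5d at chr9:42264301-42264550 on the minus strand. These are sequences of the reference strain, and a match is not evidence of binding in cortex. For Hmgcs1, Lss and Sc5d the first bases after the RefSeq start were in no transcript of the gene in GENCODE M21. The distances therefore hold for the RefSeq starts only. A missing match does not show that a gene lacks a sterol element, since only the form given above was searched.
Hmgcs1: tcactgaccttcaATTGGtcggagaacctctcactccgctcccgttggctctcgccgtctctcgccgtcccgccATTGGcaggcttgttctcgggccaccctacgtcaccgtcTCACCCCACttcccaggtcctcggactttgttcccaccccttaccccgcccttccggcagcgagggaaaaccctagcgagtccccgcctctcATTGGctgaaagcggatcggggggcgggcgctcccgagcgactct
Sc5d: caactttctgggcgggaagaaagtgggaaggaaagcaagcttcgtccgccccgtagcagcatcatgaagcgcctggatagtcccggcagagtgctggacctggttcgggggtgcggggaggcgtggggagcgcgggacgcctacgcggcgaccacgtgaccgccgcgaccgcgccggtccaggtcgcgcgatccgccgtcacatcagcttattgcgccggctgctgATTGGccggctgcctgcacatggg

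Levels are given as FPKM, fragments for each kilobase of a gene after scaling of each library. The deposited values had been scaled by a size factor, a median ratio of reads over genes, and not by total reads. The gene length is that of the deposited table, and comparisons between genes rest on it. Between 16317439 and 21562429 reads lay on genes in a library, and single members had from 159 (Idi1) to 4744 (Hmgcs1) reads. Differences are log2 fold changes of log2(FPKM + 0.1) from limma, and an adjusted p is that of limma with Benjamini-Hochberg adjustment over all genes tested, with 0.05 as the threshold. C3H replicate 2 stood apart from the other C3H mice, with chi-square values per gene of 22.65 and 24.12 against them, when the others differed by 8.113. To a lesser degree B6 replicate 1 did so in B6, with 13.27 and 19.17 against its mates, which differed by 7.865. Genes rich in GC tended to be higher in C3H than in B6 (Spearman's rho across 12940 genes 0.485, a description, since genes are not independent) and lower in WSB than in C3H (rho -0.397), while the trend between WSB and B6 was weaker (rho 0.114). Markers of neurons (956 to 1123 FPKM summed over 8 genes) and astrocytes (222 to 268 over 8 genes) were present in every library. Those of striatum and choroid plexus varied widely between mice of a strain. Summed over 6 striatal markers, libraries had 104.5 to 432 FPKM (B6), 98.1 to 264 (C3H) and 77.0 to 208 (WSB). The 6 choroid plexus markers summed to 64.8 to 763, 92.2 to 656 and 468 to 603 FPKM in the same order. The part of this variation in the results was not tested. Summed over 12 oligodendrocyte markers, B6 libraries had 956 to 1212 FPKM, C3H libraries 883 to 1171 and WSB libraries 516 to 731. Summed over 5 blood markers, they had 217 to 254 FPKM (B6), 632 to 1010 (C3H) and 249 to 329 (WSB). No marker of either list was at 0 in all mice.

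The enzymes spanned a wide range of levels, and their order was much the same in the 3 strains. Hmgcs1 had the highest level in every mouse, Fdft1 the second and Cyp51 the third. Dhcr7, Idi1 and Lss had the lowest mean levels, in that order, in each strain. In every mouse, however, Lss had more reads than Idi1 (504 to 760 against 159 to 344 over the mice). Its rank below Idi1 rests on the gene lengths used, 10787 bases for Lss and 3505 for Idi1. One exchange of rank separated B6 from the others. In B6 the level of Sc5d (14.5 FPKM) was above that of Sqle (11.6 FPKM), with no overlap between mice, whereas Sqle was above Sc5d in C3H (10.3 against 8.41 FPKM) and WSB (14.6 against 9.69 FPKM), again with no overlap. Neighbours in this order overlapped between mice only for Dhcr7 and Idi1 in B6, and for Idi1 and Lss in C3H and WSB.

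**Figure D1:**
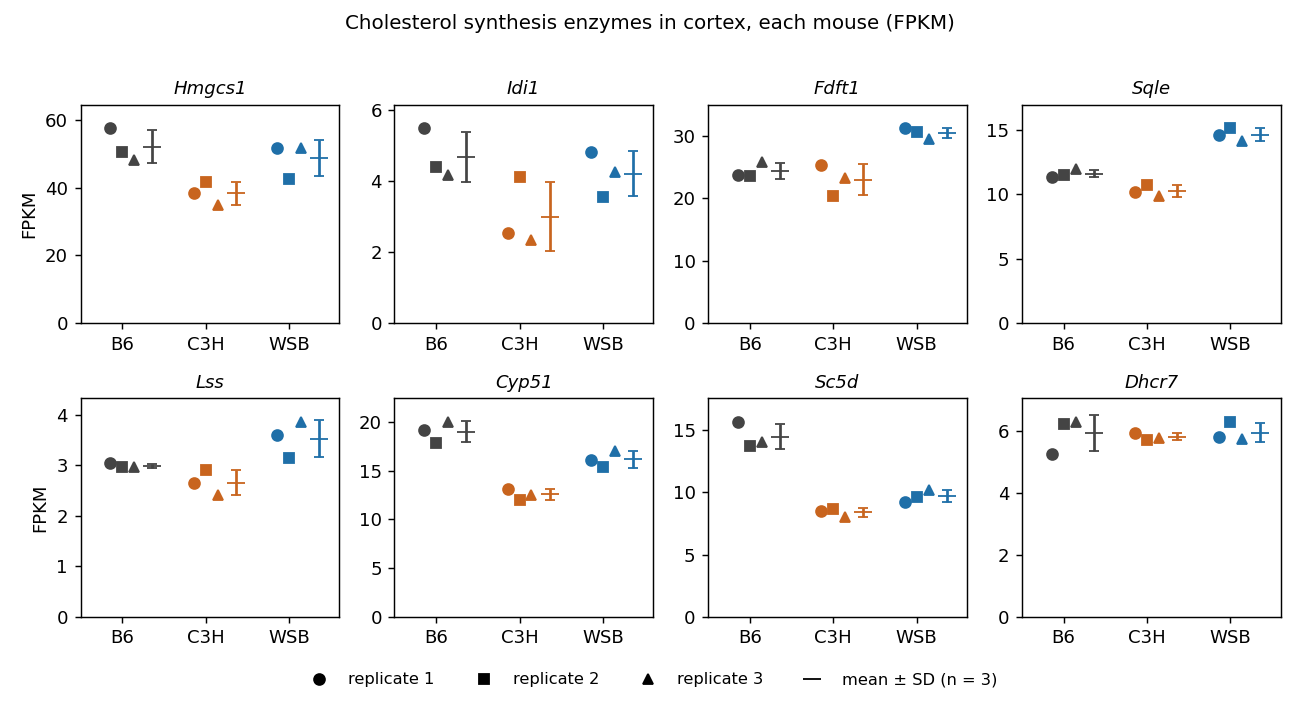
Level of each of the 8 enzymes in FPKM (vertical axes, each from 0) in the 3 mice of B6, C3H and WSB, with a marker for each replicate and bars for mean ± SD (n = 3). Cyp51 and Sc5d in C3H lie well below B6, Fdft1 and Sqle in WSB lie above both other strains, and Dhcr7 overlaps in all 3.

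Hmgcs1 and Idi1 act early, on the way to the isoprenoid units. Hmgcs1 (ENSMUSG00000093930, chromosome 13 of GRCm38 from 119690379 to 119708260, plus strand) encodes the cytosolic HMG-CoA synthase, on the way to mevalonate. Its level was 57.7, 50.6 and 48.3 FPKM in the B6 mice, 38.5, 41.6 and 34.8 in the C3H mice, and 51.9, 42.5 and 51.7 in the WSB mice. Every C3H mouse was below every B6 and WSB mouse, and B6 and WSB overlapped. Between C3H and B6 the log2 fold change was -0.44 (SE 0.10, adjusted p = 0.05003), which left Hmgcs1 just outside the threshold, at rank 957 by p when 956 genes passed. Without C3H replicate 2 it passed (-0.51, adjusted p = 0.0315), but leaving out that mouse also raised the number passing over all genes. Of the 6 fits with 1 mouse left out, only this 1 passed (adjusted p up to 0.162), and of 17 alternatives 4 passed. The difference was 0.34 between WSB and C3H (adjusted p = 0.113) and -0.10 between WSB and B6 (adjusted p = 0.650).

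Idi1 (ENSMUSG00000058258, chromosome 13 from 8885501 to 8892451, plus strand) encodes the isomerase that interconverts the 2 isoprenoid units. It had 5.48, 4.38 and 4.16 FPKM in B6, 2.53, 4.11 and 2.34 in C3H, and 4.80, 3.54 and 4.23 in WSB. All C3H mice were below all B6 mice, but C3H replicate 2 came close to them and lay within the WSB range. Its values spread more than those of the other members, with a coefficient of variation of 32.5% in C3H, and it did not pass in any comparison (C3H against B6 -0.66, SE 0.22, adjusted p = 0.135; WSB against C3H 0.51, adjusted p = 0.221). Leaving out C3H replicate 2 changed both calls, to -0.91 (adjusted p = 0.0207) against B6 and to 0.75 (adjusted p = 0.0368) for WSB against C3H. It also raised the number passing over all genes in both comparisons. Against B6 this was the only 1 of 17 alternatives to pass, with adjusted p up to 0.346 when 1 mouse was left out. In each strain the mouse with the most Hmgcs1 also had the most Idi1, and the mouse with the least Hmgcs1 the least Idi1, a pattern seen after the values were known. A pseudogene, Gm13502, is identical to Idi1 over 684 bases of transcript and had at most 0.615 FPKM, so a few reads may be split between them.

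Fdft1, Sqle and Lss lead from isoprenoids to lanosterol. Fdft1 (ENSMUSG00000021273, chromosome 14 from 63145150 to 63179578, minus strand) encodes squalene synthase, the first step that only sterol synthesis uses. The values were 23.8, 23.6 and 25.9 FPKM in B6, 25.3, 20.3 and 23.3 in C3H, and 31.3, 30.6 and 29.6 in WSB. The WSB mice lay above every mouse of the other strains, and B6 and C3H overlapped. Fdft1 was higher in WSB than in B6 (0.32, SE 0.07, adjusted p = 0.0357) and than in C3H (0.41, SE 0.09, adjusted p = 0.0476), and its difference between C3H and B6 was -0.09 (adjusted p = 0.598). The last 774 bases of Fdft1 overlap the end of Ctsb on the opposite strand, a gene with a higher level (at most 123.5 FPKM), and whether reads were counted by strand was not given in the sources used here.

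Sqle (ENSMUSG00000022351, chromosome 15 from 59315077 to 59331192, plus strand) encodes squalene epoxidase, which adds oxygen to squalene, a rate-limiting step of the pathway. Its level was 11.4, 11.5 and 12.0 FPKM in B6, 10.2, 10.8 and 9.88 in C3H, and 14.6, 15.2 and 14.2 in WSB. The 3 strains did not overlap, with WSB highest and C3H lowest. Sqle was higher in WSB than in B6 (0.33, SE 0.07, adjusted p = 0.0316) and than in C3H (0.51, SE 0.07, adjusted p = 0.0101), while C3H and B6 differed by -0.18 (adjusted p = 0.206).

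Lss (ENSMUSG00000033105, chromosome 10 from 76531588 to 76557138, plus strand) encodes lanosterol synthase, which closes the rings of the sterol. It had 3.03, 2.96 and 2.96 FPKM in B6, 2.64, 2.90 and 2.41 in C3H, and 3.58, 3.13 and 3.86 in WSB. The order of the strains was that of Sqle, again with no overlap, but the gaps were small beside the spread in C3H and WSB. Lss did not pass between C3H and B6 (-0.17, adjusted p = 0.403), WSB and B6 (0.23, adjusted p = 0.306) or WSB and C3H (0.40, adjusted p = 0.126).

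Cyp51, Sc5d and Dhcr7 modify the sterol after lanosterol. Cyp51 (ENSMUSG00000001467, chromosome 5 from 4081145 to 4104746, minus strand) encodes the demethylase that removes a methyl group from lanosterol. Its level was 19.2, 17.9 and 20.1 FPKM in B6, 13.2, 12.1 and 12.5 in C3H, and 16.1, 15.4 and 17.1 in WSB. No strains overlapped, with B6 highest and C3H lowest. Cyp51 was lower in C3H than in B6, at 0.663 of the B6 level (-0.59, SE 0.08, adjusted p = 0.00618), and higher in WSB than in C3H (0.36, SE 0.08, adjusted p = 0.0406), and the difference between WSB and B6 was -0.23 (adjusted p = 0.139). It shares 166 bases with Akap9, on the opposite strand, which had 1.85 to 3.70 FPKM.

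Sc5d (ENSMUSG00000032018, chromosome 9 from 42251595 to 42264256, minus strand) encodes a desaturase that adds a double bond late in the pathway. It had 15.7, 13.8 and 14.1 FPKM in B6, 8.53, 8.71 and 8.00 in C3H, and 9.26, 9.60 and 10.2 in WSB. The B6 mice stood well above both other strains, which came close to each other without overlap. Sc5d fell in C3H to 0.583 of the B6 level (-0.78, SE 0.09, adjusted p = 0.00247) and in WSB to 0.671 of it (-0.58, SE 0.08, adjusted p = 0.00781), comparisons that share the B6 mice. Between WSB and C3H it differed by 0.20 (95% interval 0.01 to 0.39, adjusted p = 0.191), and by 0.03 with the GC trend removed (adjusted p = 0.879). No transcript of 90% identity or more over 150 bases and no overlapping gene was found for Sc5d.

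Dhcr7 (ENSMUSG00000058454, chromosome 7 from 143823145 to 143848410, plus strand) encodes the reductase that acts at the end of the pathway. The values were 5.28, 6.25 and 6.30 FPKM in B6, 5.95, 5.73 and 5.78 in C3H, and 5.82, 6.31 and 5.75 in WSB. All 3 strains overlapped. The log2 fold change was -0.03 between C3H and B6 (95% interval -0.26 to 0.21), 0.01 between WSB and B6 (-0.23 to 0.24) and 0.03 between WSB and C3H (-0.17 to 0.23), so these data leave room for differences of up to that size. Its sign turned in some alternatives in each comparison.

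In the comparison of C3H with B6, 2 of the 8 enzymes passed the threshold, Cyp51 and Sc5d, both lower in C3H. Over all 20602 genes tested, 4.64% passed in either direction and 2.26% were lower in C3H. Every C3H mouse was below every B6 mouse for 6 of the 8 enzymes (all but Fdft1 and Dhcr7), against 14.0% of all genes. None of the 8 differences was above 0, and their median was -0.31, when the median of all genes was -0.0038. The calls for Cyp51 (-0.64 to -0.51) and Sc5d (-0.81 to -0.57) held in each of 17 alternative analyses, including those that left out 1 mouse.

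The size of the difference between C3H and B6 followed GC content among the enzymes, as it did in the whole table. The 4 enzymes of lowest GC content, Idi1 (41.9%), Sc5d (42.9%), Hmgcs1 (43.1%) and Cyp51 (46.2%), had differences of -0.44 to -0.78. The 4 others, from 48.6% (Sqle) to 52.8% (Dhcr7), had differences of -0.03 to -0.18. After the GC trend of each library was removed, Sc5d (-0.57, adjusted p = 0.00626) and Cyp51 (-0.51, adjusted p = 0.0143) still passed, and all 8 values were below 0. Hmgcs1 was then at -0.25 (adjusted p = 0.0625) and Idi1 at -0.42 (adjusted p = 0.139). The blood markers were higher in C3H in 3 of 5 genes (Hba-a1, Hbb-bs and Alas2), and none of the 12 oligodendrocyte markers passed (list median -0.182). C1qb was lower, the 1 gene of 8 in the microglial list to pass, but 5 of the 8 were above 0 and the list median was 0.068. Syt1 was likewise the 1 gene of 8 in the neuronal list to pass, and was lower. Of those 8, 3 were above 0, and the list median was -0.063. The part of these markers in the results was not tested.

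**Figure D2:**
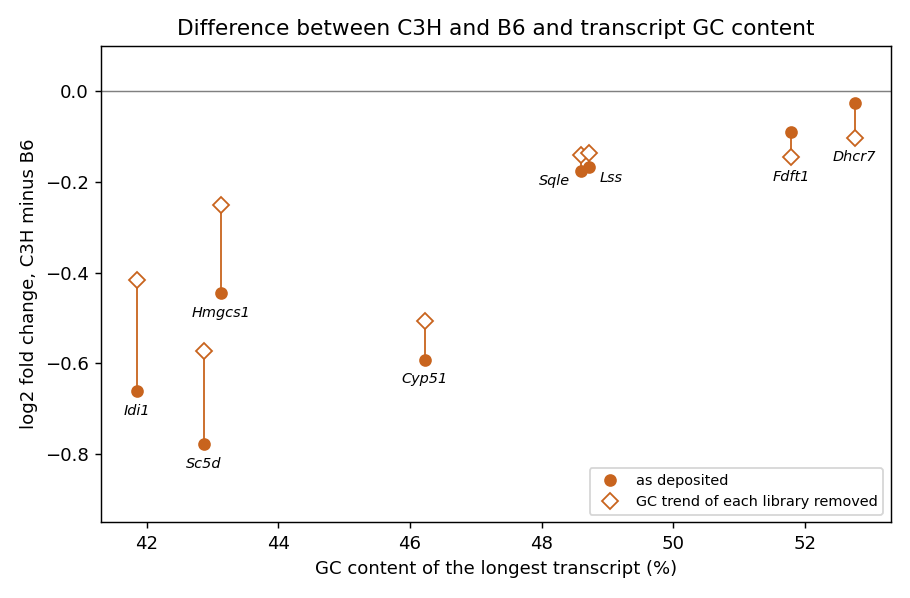
Log2 fold change of C3H against B6 (vertical axis) and GC content of the longest transcript in percent (horizontal axis) for the 8 enzymes, as deposited (filled) and after the GC trend was taken out of each library (open). Removal moved Sc5d from -0.78 to -0.57 and Cyp51 from -0.59 to -0.51.

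In the comparison of WSB with B6 the enzymes went both ways. Fdft1 and Sqle were higher in WSB and Sc5d was lower, so 3 of 8 passed, against 5.90% of the 20746 genes tested in either direction, 2.81% higher and 3.09% lower. Every WSB mouse was above every B6 mouse for 3 enzymes (Fdft1, Sqle and Lss), against 13.0% of all genes, and below for 2 (Cyp51 and Sc5d), against 13.1%. The median difference of the 8 was -0.047, beside 0.0025 for all genes. Sc5d passed in all 17 alternatives (-0.61 to -0.52). Fdft1 and Sqle each lost the call when any 1 of the 6 mice was left out, at 0.30 to 0.36 (adjusted p = 0.0544 to 0.144) and 0.31 to 0.35 (adjusted p = 0.0688 to 0.125), and with the replicate number as a block, at adjusted p = 0.0919 and 0.0840. Oligodendrocyte markers were lower in WSB than in B6, with 3 of 12 past the threshold (Mobp, Cldn11 and Mal), 11 of 12 without overlap and a median of -0.71. Of the microglial list C1qb, Csf1r and Trem2 (3 of 8) were also lower, and the list median was -0.333. Of the endothelial list Ly6c1, at 0 FPKM in every WSB mouse, and Slco1a4 (2 of 6) were lower. The rest of that list lay between -0.07 (Abcb1a) and 0.05 (Flt1), and its median was -0.064. Of the blood list Hba-a1 was higher and Hbb-bt lower. The part of all these markers in the differences of the enzymes was not tested.

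Between WSB and C3H, all 8 enzymes were on the side of WSB, with a median difference of 0.378 when that of all genes was 0.0089. Sqle, Fdft1 and Cyp51 passed the threshold, all higher in WSB, against 5.74% of the 20607 genes tested in either direction and 2.61% higher in WSB. The WSB mice were all above the C3H mice for 6 enzymes (all but Idi1 and Dhcr7), against 14.2% of all genes. These counts were not stable. Cyp51 lost its call without any 1 of the 6 mice (0.32 to 0.40, adjusted p = 0.0524 to 0.137) and with the GC trend removed (0.29, adjusted p = 0.0786), and Fdft1 lost it without any mouse but C3H replicate 2 (adjusted p = 0.0634 to 0.153). With that trend removed the differences of Hmgcs1 and Idi1 were 0.18 (adjusted p = 0.209) and 0.30 (adjusted p = 0.278). Sqle lost its call without C3H replicate 1 (0.50, adjusted p = 0.0550) or C3H replicate 3 (0.48, adjusted p = 0.0518). With the replicate number as a block none of the 3 passed, at adjusted p = 0.0524 (Sqle), 0.105 (Fdft1) and 0.120 (Cyp51). In this comparison 3 of 5 blood markers (Hba-a1, Hbb-bs and Alas2) were lower in WSB. Mog (1 of 12 oligodendrocyte markers), C1qa and Trem2 (2 of 8 microglial) and Ly6c1 and Slco1a4 (2 of 6 endothelial) were also lower. Of 8 astrocyte markers Gfap was lower and Slc4a4 higher, and of 8 neuronal markers Syt1 was higher. List medians were -1.371 (blood), -0.522 (oligodendrocytes), -0.31 (microglia), -0.084 (endothelium), -0.042 (astrocytes) and 0.102 (neurons). Without overlap, 7 of the 12 oligodendrocyte markers lay below C3H. The part of these markers was not tested.

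**Figure D3:**
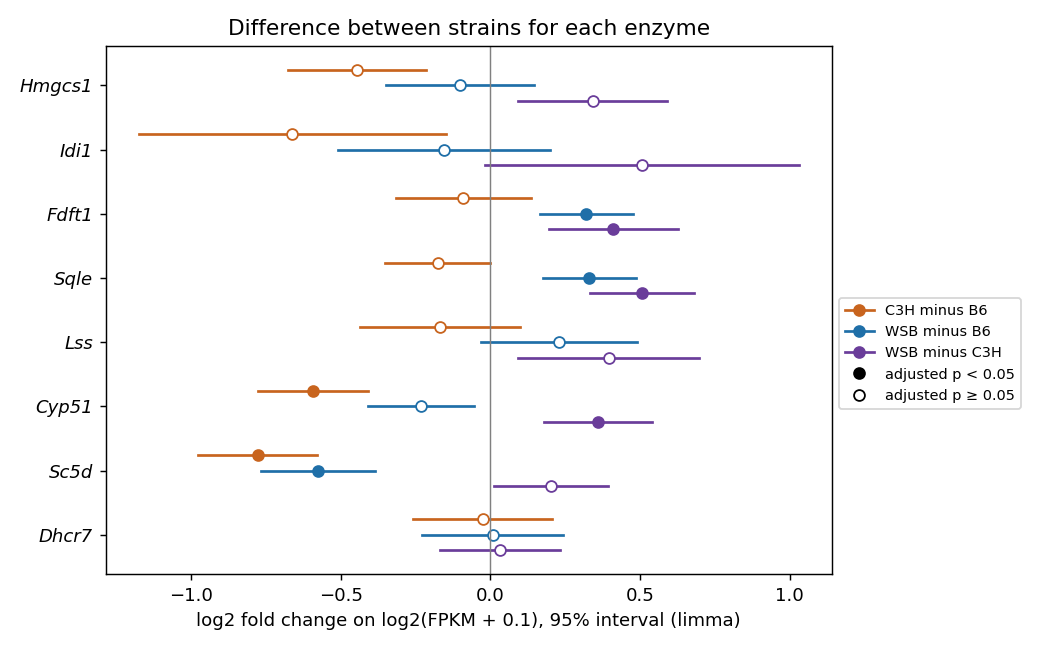
Log2 fold change of each enzyme (horizontal axis) with its 95% interval for C3H against B6, WSB against B6 and WSB against C3H, filled where the adjusted p was under 0.05. Sc5d is filled in both comparisons with B6, Cyp51 in both with C3H, and Fdft1 and Sqle in both with WSB.

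Summed over the 8 enzymes, transcript levels were 131 to 142 FPKM in the B6 mice, 99.1 to 107 in the C3H mice and 126 to 137 in the WSB mice. The C3H mice were below all the others, and B6 and WSB overlapped. Hmgcs1 makes up much of this sum. When each enzyme was given equal weight, as the mean log2 deviation from its own average over the 9 mice, the values were 0.168, 0.0939 and 0.127 in B6, -0.228, -0.162 and -0.322 in C3H, and 0.140, 0.0429 and 0.141 in WSB. The order of the strains was thus the same by both measures, and no test is given for either.

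The remaining enzymes of the pathway were read as a list of 14 genes, of which 13 were in the table and tested. Msmo1, an oxidase of a demethylation later than that by Cyp51, was the one gene of the list to pass between C3H and B6. It had 16.2, 15.0 and 14.8 FPKM in B6 and 11.4, 11.9 and 10.4 in C3H (-0.44, SE 0.08, adjusted p = 0.0284). In WSB it had 17.0, 15.5 and 15.4 FPKM, above C3H (0.50, adjusted p = 0.0165). Parts of its transcript matched at least 355 other genes at 90% identity or more over 150 bases, the longest match found being 216 bases. The search kept a limited number of transcripts, so the count may be cut. Nsdhl, a dehydrogenase of the same demethylation, was the one to pass between WSB and B6, with 7.0, 8.3 and 8.8 FPKM in B6 and 12.2, 11.4 and 11.6 in WSB (0.55, SE 0.10, adjusted p = 0.0232). Each of these calls was lost in some alternatives: Msmo1 passed in 9 of 17 against B6 and 11 of 17 for WSB against C3H, and Nsdhl in 10 of 17. Leaving out single mice gave adjusted p = 0.0240 to 0.108, 0.0201 to 0.0713 and 0.0355 to 0.0823 in that order.

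The list as a whole did not lean as the 8 enzymes did. Its median difference was 0.02 between C3H and B6, 0.06 between WSB and B6 and 0.07 between WSB and C3H. Hsd17b7, a reductase of the later sterols, differed by -0.39 between C3H and B6 (adjusted p = 0.0818), and Pmvk, a kinase that acts on mevalonate phosphate, by 0.30 (adjusted p = 0.0778). Fdps had means of 0.210 to 0.230 FPKM, and its span lies almost wholly within another gene model on the same strand, so its level is uncertain.

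**Figure D4:**
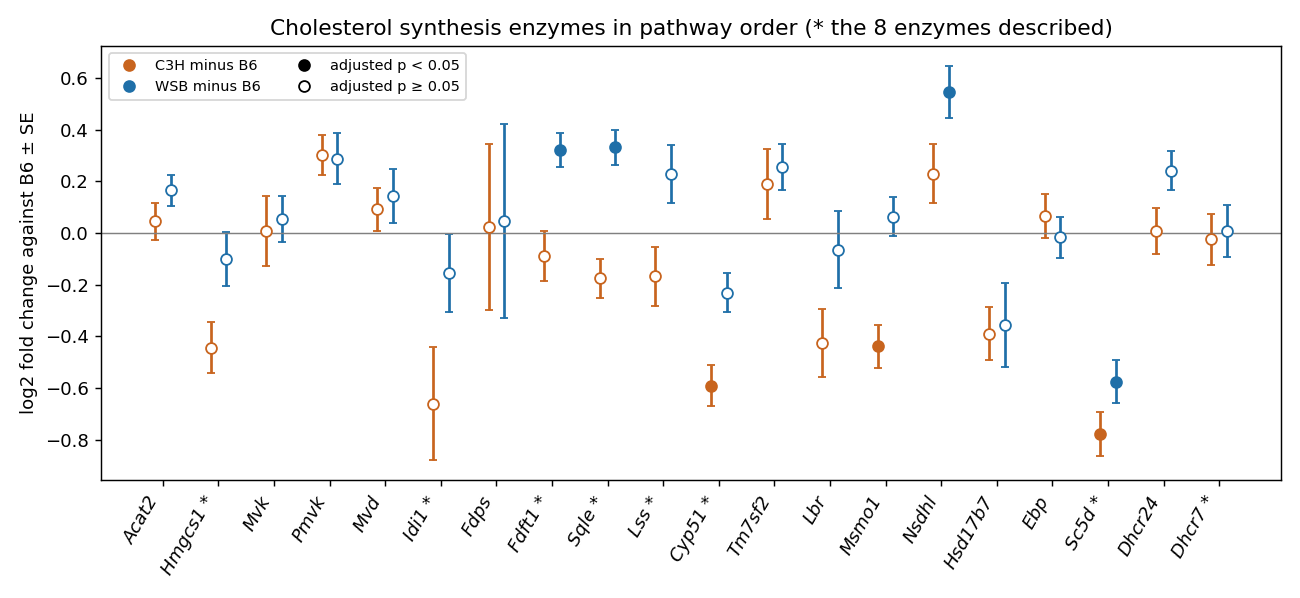
Log2 fold change ± SE against B6 (vertical axis) for C3H and WSB, for the 8 enzymes (marked with a star) and 12 other enzymes of the pathway in the order of the reactions, filled where the adjusted p was under 0.05. In C3H the filled points are Cyp51, Msmo1 and Sc5d, and in WSB they are Fdft1, Sqle, Nsdhl and Sc5d.

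Among 15 genes of sterol sensing, Insig1 had the clearest difference. It had 25.0, 24.7 and 24.2 FPKM in B6, 15.4, 13.7 and 15.1 in C3H, and 25.9, 23.7 and 27.0 in WSB. C3H was far below both other strains, which overlapped. Insig1 was lower in C3H than in B6 (-0.74, SE 0.07, adjusted p = 0.00168) and higher in WSB than in C3H (0.79, SE 0.08, adjusted p = 0.00227), and both calls held in all 17 alternatives, at -0.77 to -0.69 and 0.74 to 0.84. Its GC content is 48.2%, and with the GC trend removed the difference between C3H and B6 was -0.70 (adjusted p = 0.00179).

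Nr1h2, which encodes the sterol receptor LXR beta, was higher in C3H than in B6 (0.45, adjusted p = 0.0495). It passed in 6 of 17 alternatives, and with 1 mouse left out adjusted p was 0.0192 to 0.174. Its GC content is 60.6%, and with the GC trend removed the difference was 0.27 (adjusted p = 0.0302). Srebf2 itself had means of 37.8 ± 1.2 FPKM in B6, 36.1 ± 3.7 in C3H and 41.2 ± 2.3 in WSB (SD, n = 3), and did not pass (C3H against B6 -0.07, adjusted p = 0.654; WSB against B6 0.12, adjusted p = 0.370). No gene of this list passed between WSB and B6.

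Stard4, a carrier of sterol that responds to SREBP, had 5.7, 5.4 and 5.6 FPKM in B6, 4.8, 4.7 and 4.0 in C3H, and 6.8, 5.8 and 7.9 in WSB. The strains did not overlap, with the order of Sqle and Lss. It did not pass between WSB and C3H (0.58, adjusted p = 0.0576), C3H and B6 (-0.30, adjusted p = 0.141) or WSB and B6 (0.28, adjusted p = 0.257).

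**Figure D5:**
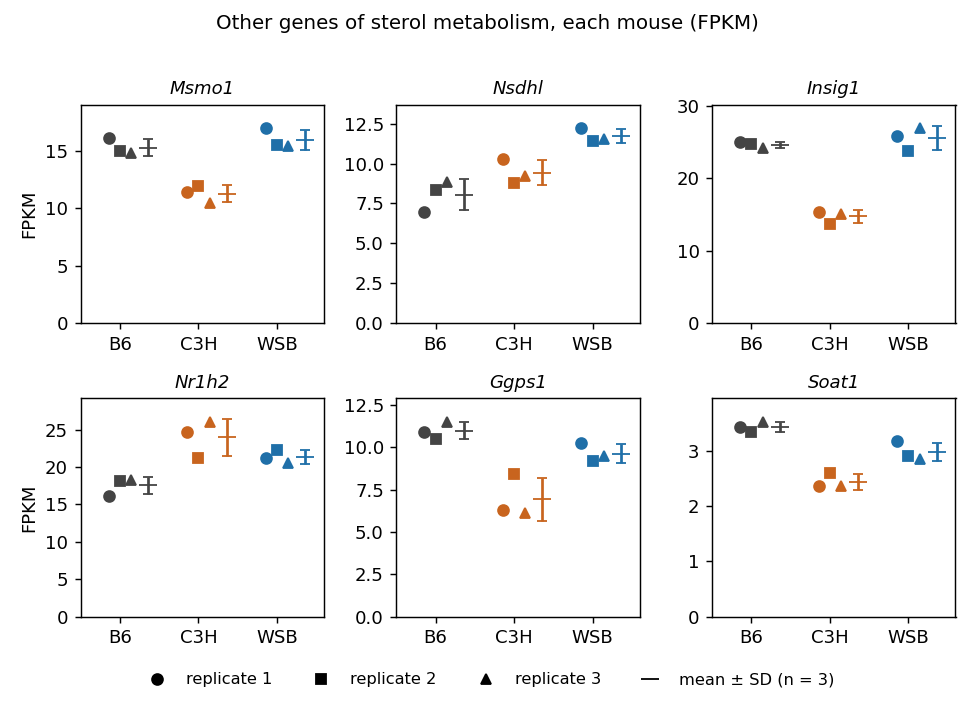
Levels in FPKM (vertical axes, each from 0) of 6 other genes of sterol metabolism that passed the threshold in at least 1 comparison, in the 3 mice of each strain, with bars for mean ± SD (n = 3). Insig1 in C3H, at 13.7 to 15.4 FPKM, lies far below B6 and WSB.

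Of 8 genes of the prenyl branch, which leaves the pathway before squalene, Ggps1 (geranylgeranyl diphosphate synthase) was lower in C3H than in B6 (-0.67, SE 0.13, adjusted p = 0.0326), a call lost with the GC trend removed (-0.37, adjusted p = 0.0832). Among 16 genes of cholesterol export, storage and turnover, Soat1, which esterifies cholesterol, was lower in C3H than in B6 (-0.48, SE 0.11, adjusted p = 0.0489), likewise lost with the trend removed (-0.32, adjusted p = 0.0964). Left out one at a time, the mice gave adjusted p = 0.00509 to 0.130 for Ggps1 and 0.0345 to 0.159 for Soat1. No gene of these 2 lists passed between WSB and B6 or between WSB and C3H. None of 10 fatty acid synthesis enzymes passed in any comparison by limma, with 3, 1 and 0 of them at an unadjusted p under 0.05 for C3H against B6, WSB against B6 and WSB against C3H. The largest difference there was that of Acaca, acetyl-CoA carboxylase, between WSB and B6 (-0.41, adjusted p = 0.0529).

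Among the 12873 genes in no list whose mean reached 1 FPKM, the 6 most like the mean log2 level of the 8 enzymes over the 9 mice were Frrs1l (Pearson's r 0.995), Krt12 (0.992), Dicer1 (0.991), A830018L16Rik (0.982), Tmem245 (0.977) and Lin7c (0.975). Frrs1l, which encodes a protein of AMPA receptor complexes, ranged over 38.5 to 43.3 FPKM in the B6 mice, 19.7 to 25.4 in the C3H mice and 33.6 to 44.0 in the WSB mice. These r values describe 9 libraries that fall into 3 strains, and a gene that is low in C3H alone will score high.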

How the data were processed

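Brain cortex of 9 male mice (3 per strain) was read in pairs of 150 bp. The authors removed adapters (Cutadapt), took counts per gene (HTSeq), tested them (DESeq2) and deposited FPKM values for each gene and mouse, which are the values used here. STAR is named in the submitters' processing notes, and no tool version was given in the sources used here. Groups and replicate numbers came from the sample labels, and 0 columns of values were left unused.

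Multiplied by gene length, each FPKM was a whole multiple of one step per library (100.0% of values, tolerance 0.01), which gave reads per gene. Depth limits the precision of low genes, and those reads cover counting error only. Pairs of strains were compared by a two-sided test in limma 3.58.1 under R 4.3.3 (functions lmFit and eBayes, the latter fitting a mean-variance trend) on log2(FPKM + 0.1), for genes whose mean in the 6 libraries was 0.1 FPKM or more, with Benjamini-Hochberg adjustment over all genes tested. Small values are understated on this scale. The p-values measure the spread between 3 mice of each inbred strain. The 3 comparisons share libraries. The test was checked on simulated data.

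The members, the 16 lists (143 genes) and the tests were chosen with earlier results of these data known. Named genes were the members, list genes past the threshold, a few of the largest differences in lists with no or few such genes, and the 6 genes most like the members. GC content came from the longest transcript in GENCODE M21, and the spans of all members were the same there and in the deposited table. Results for some listed genes are not reported here. Alternatives were pseudocounts of 1 and 0.01, no filter and a filter of 1 FPKM, rescaling to total reads, eBayes without a trend, one fit of all 3 strains, weights from voom, GC trend removed, the replicate block alone and with the GC trend removed, and leaving out each mouse. No 2 libraries of a strain were alike within sampling noise, with chi-square values per gene of 7.865 or more.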

Additional observations from a re-analysis of the deposited data

Results flagged for a closer look

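Between C3H and WSB, 5 of the sterol genes described above differed in their change from B6, which is the difference between WSB and C3H since B6 is common to both. On the log2 scale WSB minus C3H was 0.4111 for Fdft1, 0.3603 for Cyp51 and 0.5068 for Sqle among the 8 enzymes, and 0.502 for Msmo1 and 0.7896 for Insig1 among the others, each with an adjusted p under 0.05 by limma. For all 5, every WSB mouse was above every C3H mouse. Only the difference of Insig1 passed in each of the 17 alternatives. In C3H the value of Sqle against B6 was -0.18 and in WSB it was 0.33, on opposite sides of B6. For Cyp51 both values were below 0 (-0.59 and -0.23).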

How the results depend on the processing

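Of 408 values of single enzymes under the alternatives, 355 kept their direction and their side of the threshold, 40 lost the call, 6 gained it and 7 changed sign. The 7 were all of Dhcr7: 0.0128 and 0.0187 between C3H and B6 without B6 replicate 2 or 3 (range with 1 mouse left out -0.1065 to 0.0187); -0.0058 between WSB and B6 with the GC trend removed, with or without the replicate block, -0.0738 without B6 replicate 1 and -0.0337 without WSB replicate 2 (range -0.0738 to 0.0514); and -0.0087 between WSB and C3H without WSB replicate 2 (range -0.0087 to 0.0577). For C3H against B6, 2 enzymes passed in the main analysis and 2 to 4 with 1 mouse left out, 4 being the number without C3H replicate 2. For WSB against B6 the number was 3, and 1 without a trend in eBayes, with the replicate block, with the block and the GC trend removed, and with any mouse left out. For WSB against C3H it was 3, with 1 without a trend, 0 with the replicate block, and 0 to 3 with 1 mouse left out (0 without C3H replicate 1 or 3, 1 without any one WSB mouse). The cause of these changes was not tested, though leaving out a mouse also leaves fewer samples.

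Over all genes, 956 passed between C3H and B6, 1486 with voom weights, 480 with the replicate block, 541 with the block and the GC trend removed, and 498 to 2301 with 1 mouse left out. Between WSB and B6 the number was 1224, and 754, 782 and 651 to 825 with the block, the block and GC removal, and 1 mouse left out. Between WSB and C3H it was 1182, and 531 with the block and 475 to 2002 with 1 mouse left out. Both highest numbers came without C3H replicate 2. The replicate numbers did not pair the mice, since deviations of same-numbered mice correlated at -0.157 to 0.037. Counts of called genes in the lists stayed within 1.5 times in 221 of 306 cases.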
